A study of Rattus with 6 samples.

Results

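Genes of MHC class I antigen presentation were followed in cultures labelled as vascular smooth muscle cells of the aorta, the contractile cells of the artery wall. The 10 genes, of 54012 in the deposited table, were taken by name: the class I heavy chains H2-K1 and H2-D1, the light chain B2m, the peptide transporter genes Tap1 and Tap2, the loading factor Tapbp, the immunoproteasome subunits Psmb8, Psmb9 and Psmb10, and the regulator Nlrc5. In 3 cultures, si-CDCP1 (genotype label CDCP1 knockdown), the siRNA was aimed at the membrane protein CDCP1, and in 3 others, si-NC (genotype label WT), it was a control. All 6 cultures were then treated with angiotensin II (Ang II), a vasoconstrictor peptide, so the libraries compare the siRNAs under Ang II and hold no culture without it. The labels call the cells primary culture and do not say whether the replicates came from separate animals, so the replicate spread behind each p-value may be no more than technical. The organism label is rat, whereas gene identifiers are those of mouse, on the build mm10.

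MHC class I molecules show fragments of a cell's own proteins, or of a virus inside it, to CD8 T cells. The proteasome cuts the proteins, the TAP transporter pumps the peptides into the endoplasmic reticulum, and tapasin holds an empty heavy chain with its light chain at the transporter until a peptide binds. Interferons raise the whole set in most tissues, smooth muscle included, by way of IRF1 and NLRC5, the class I transactivator.

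Depth was 16050517 to 19771638 reads per library over all listed genes. Levels are in FPKM, fragments per kilobase of gene length scaled to library size, and a floor of 3 reads on 1 kb of gene stood at 0.149 to 0.192 FPKM. Cdcp1, the siRNA target, had 0, 5 and 0 reads in the si-CDCP1 libraries and 2, 2 and 1 reads in the si-NC libraries, so the labels could not be checked on it. One library, si-CDCP1 replicate 3, stood apart: it correlated with each of the others at a Pearson r of 0.979 to 0.983 across genes on log2(FPKM + 1), and the other 5 with each other at 0.988 to 0.991. Where a log2 difference or median named here moved with that library, the value without it is given too. Of 10 smooth muscle markers only Acta2, Cald1 and Smtn averaged at least 1 FPKM, while Myh11, Tagln and Cnn1 stayed at or under 0.216 FPKM in every library, so the markers only partly bear out the label. The list summed to 61.1 to 94.1 FPKM in si-CDCP1 and 61.4 to 66.7 FPKM in si-NC, and all 3 tested markers were highest in si-CDCP1 replicate 3, where Acta2 reached 64.2 FPKM. Of 10 macrophage and dendritic cell markers 2 were tested: Lyz2 averaged 2.11 FPKM in si-CDCP1 and 1.65 FPKM in si-NC, Cd68 0.822 and 1.27 FPKM, and neither passed. The list summed to 2.70 to 3.28 FPKM in si-CDCP1 and 2.94 to 3.07 FPKM in si-NC, with Itgam, Adgre1 and C1qa at 0 throughout. None of 8 T and NK cell markers was tested, and their sum was 0.0304 to 0.185 FPKM in si-CDCP1 and 0 to 0.107 FPKM in si-NC. The 7 fibroblast markers, 5 of them tested and 0 called, summed to 395 to 451 FPKM in si-CDCP1 and 391 to 431 FPKM in si-NC. The part of other cell types in the class I levels was not tested. In such bulk cultures, fewer cells of a type and less RNA per cell cannot be told apart.

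At the level of single genes, no class I gene passed the test between si-CDCP1 and si-NC. Limma, a moderated test on log2(FPKM + 1), was run on all 12080 genes that averaged 1 FPKM or more. It called 0 of the 9 genes that passed this filter at a Benjamini-Hochberg (BH) adjusted p of 0.05, beside 0 of all genes tested (0%). At an unadjusted p under 0.05 it listed 2 of the 9, Tap1 and Tap2, both lower in si-CDCP1, beside 5.31% of all genes lower and 8.94% higher. In limma voom on reads recovered from the FPKM, 5 of 14365 genes (0.0348%) passed the adjusted threshold, and 0 of the 10 class I genes did. Psmb8, with a mean of 0.901 FPKM, fell just short of the filter. Of the 9 log2 differences 8 were negative, beside 5766 of all 12080 genes tested. The median of the 9 was -0.07 against 0.01 over all genes tested, and 0.01 without si-CDCP1 replicate 3. The 9 genes did not move as one over the 6 libraries.

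**Figure D1:**
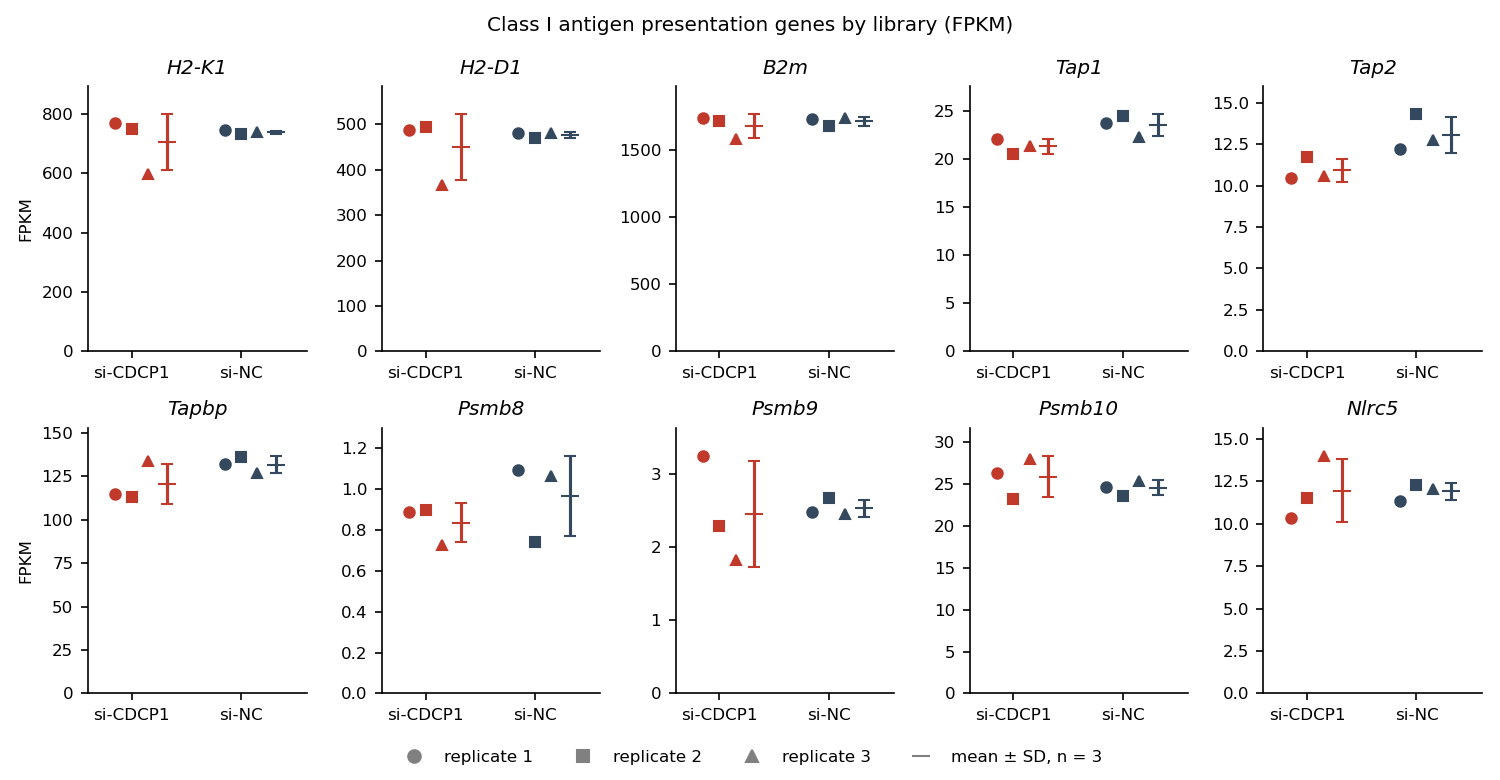
FPKM of the 10 class I genes in each library, si-CDCP1 in red and si-NC in dark blue, with the replicate given by the symbol and mean ± SD (n = 3) beside the points; every axis starts at 0. H2-K1, H2-D1 and B2m are lowest in si-CDCP1 replicate 3, Nlrc5 and Psmb10 are highest there, and Tap1 and Tap2 are lower in each si-CDCP1 library than in any si-NC library.

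The light chain and the heavy chains were among the most abundant transcripts of these cultures. By mean FPKM over the 6 libraries B2m stood in place 7 of the 12080 tested genes, H2-K1 in place 22 and H2-D1 in place 43. Tapbp followed at 126 FPKM, then Psmb10 at 25.2 and Tap1 at 22.5 FPKM, then Tap2 at 12.0 and Nlrc5 at 11.9 FPKM, and last Psmb9 at 2.49 and Psmb8 at 0.901 FPKM. In this order the ranges over the 6 libraries overlapped between Psmb10 and Tap1 and between Tap2 and Nlrc5, and each other gene lay above the next in every library. The 10 genes together took 0.545%, 0.540% and 0.446% of the listed reads in si-CDCP1 replicates 1, 2 and 3, against 0.552%, 0.545% and 0.549% in si-NC replicates 1, 2 and 3. The share was thus close to level in 5 libraries and lower in si-CDCP1 replicate 3.

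H2-K1 (ENSMUSG00000061232, mm10 chromosome 17, 33996017 to 34000333, minus strand) encodes a classical class I heavy chain, the subunit that holds the peptide. It was at 769, 749 and 599 FPKM in si-CDCP1 replicates 1, 2 and 3, against 744, 734 and 738 FPKM in si-NC replicates 1, 2 and 3. The si-NC libraries lay close together, and the si-CDCP1 libraries fell on either side of them, replicates 1 and 2 above every si-NC library and replicate 3 far below. Means were 706 ± 92.8 FPKM in si-CDCP1 and 739 ± 5.18 FPKM in si-NC (SD, n = 3 each). The log2 difference, -0.07 (SE 0.096), had a BH-adjusted p of 0.728 in limma. Without si-CDCP1 replicate 3 the log2 difference was 0.04 (SE 0.032), with the opposite sign and an adjusted p of 0.600 in limma (0.453 to 0.849 over 15 settings). Neither difference exceeded the spread between replicates by that test.

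H2-D1 (ENSMUSG00000073411, chromosome 17, 35262730 to 35267499, plus strand) encodes the other classical heavy chain of this set. Its levels were 487, 495 and 367 FPKM in si-CDCP1 replicates 1 to 3, against 480.2, 469 and 479 FPKM in si-NC replicates 1 to 3. The picture was that of H2-K1: replicates 1 and 2 of si-CDCP1 lay above all si-NC libraries and replicate 3 below them. The log2 difference was -0.10 (SE 0.11), with a limma adjusted p of 0.702, and 0.04 (SE 0.031) without si-CDCP1 replicate 3. H2-K1 in si-CDCP1 replicate 3 was at 0.802 times the mean of the other 5 libraries and H2-D1 at 0.760 times. The ratio of H2-K1 to H2-D1 within a library ranged from 1.51 to 1.63 over the 6 libraries, highest in si-CDCP1 replicate 3.

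B2m (ENSMUSG00000060802, chromosome 2, 122147686 to 122153083, plus strand) encodes beta-2 microglobulin, the light chain without which a heavy chain is not stable at the cell surface. It was at 1742, 1722 and 1584 FPKM in si-CDCP1 replicates 1 to 3 and at 1733, 1682 and 1742 FPKM in si-NC replicates 1 to 3. B2m was thus lowest in si-CDCP1 replicate 3 as well, at 0.918 times the mean of the other 5, a smaller shift than those of the heavy chains. The log2 difference between the groups was -0.03 (SE 0.058), with an adjusted p of 0.810 in limma, and 0.01 without si-CDCP1 replicate 3. The ratio of B2m to H2-K1 was 2.27, 2.30 and 2.64 in si-CDCP1 replicates 1 to 3 and 2.33, 2.29 and 2.36 in si-NC replicates 1 to 3. In that library the light chain therefore stood higher relative to H2-K1 than in any other.

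Heavy chains of the class I region share long stretches of sequence, and how reads that match several genes were counted is not given in the sources used here, so levels of H2-K1, H2-D1 and their relatives are uncertain. In all, 14 class I heavy-chain rows, pseudogenes included, averaged at least 1 FPKM. Together they held 0.407%, 0.406% and 0.316% of the listed reads in si-CDCP1 replicates 1 to 3, against 0.405%, 0.404% and 0.406% in si-NC replicates 1 to 3. The sum was thus lower in si-CDCP1 replicate 3 as well, but H2-K1 and H2-D1 make up most of it. Reads left out, or counted to rows outside these 14, cannot be seen in it, and the part of shared reads was not tested. H2-K1 and H2-D1 took 76.3% of the reads of the 14 rows in si-CDCP1 replicate 3 (95% Wilson interval 76.0% to 76.7%, counting error only). Their share was 79.7% to 80.3% in the other si-CDCP1 libraries and 78.6% to 79.8% in si-NC. The pseudogene H2-K2 went the other way, at 7.21, 6.55 and 11.4 FPKM in si-CDCP1 replicates 1 to 3 and 6.74, 6.72 and 5.76 FPKM in si-NC replicates 1 to 3.

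Among 14 tested heavy chains and class I-like molecules, the 2 classical chains included, 0 passed at the adjusted threshold. Their median log2 difference was -0.09, with 10 negative and 4 positive values, and -0.06 without si-CDCP1 replicate 3. The smallest p-values belonged to 3 genes of the T region of the mouse MHC, which encodes nonclassical class I molecules. H2-T10, annotated as a polymorphic pseudogene, was at 2.94, 2.73 and 2.81 FPKM in si-CDCP1 replicates 1 to 3, against 4.13, 3.37 and 3.52 FPKM in si-NC replicates 1 to 3, a log2 difference of -0.29 (SE 0.084; adjusted p = 0.283 in limma). H2-T22, whose product is a ligand of a subset of gamma-delta T cells, averaged 68.6 ± 0.710 FPKM in si-CDCP1 and 74.3 ± 3.46 FPKM in si-NC (SD, n = 3 each). H2-T23, which encodes Qa-1, a ligand of the NK cell receptor NKG2A, averaged 53.2 ± 1.39 FPKM and 56.9 ± 0.627 FPKM. Of the 14, 3 had every si-CDCP1 library below every si-NC library, these same 3, beside 10.6% of all tested genes. With library weights H2-T10 fell (adjusted p = 0.0375 in limma; 0.0375 to 0.645 over 15 settings), 1 of the 14 beside 2.54% of all genes.

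Tap1 and Tap2 encode the chains of the TAP transporter, which carries peptides into the endoplasmic reticulum. Both had lower values in every si-CDCP1 library than in any si-NC library, as did 10.6% of all tested genes. Tap1 (ENSMUSG00000037321, chromosome 17, 34187553 to 34197225, plus strand) was at 22.1, 20.5 and 21.4 FPKM in si-CDCP1 replicates 1 to 3, against 23.8, 24.5 and 22.3 FPKM in si-NC replicates 1 to 3. The closest libraries, si-CDCP1 replicate 1 and si-NC replicate 3, differed little. Means were 21.3 ± 0.803 FPKM in si-CDCP1 and 23.6 ± 1.11 FPKM in si-NC (SD, n = 3 each). The log2 difference, -0.14 (SE 0.056), had an adjusted p of 0.344 in limma. Tap2 (ENSMUSG00000024339, chromosome 17, 34203527 to 34216321, plus strand) was at 10.5, 11.7 and 10.6 FPKM in si-CDCP1 replicates 1 to 3, against 12.2, 14.3 and 12.7 FPKM in si-NC replicates 1 to 3.

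For Tap2 the means were 10.9 ± 0.678 FPKM in si-CDCP1 and 13.1 ± 1.09 FPKM in si-NC (SD, n = 3 each). Its log2 difference of -0.24 (SE 0.074) was the most negative of the 9 tested class I genes, with an adjusted p of 0.296 in limma and a rank of 607 among the 12080 unadjusted p-values. By reads, the ratio of si-CDCP1 to si-NC was 0.839 for Tap2 (exact binomial 95% interval 0.792 to 0.890) and 0.908 for Tap1 (0.876 to 0.940), intervals that cover counting error only. By exact permutation (two-sided) p was 0.1 for each, the smallest that 3 libraries against 3 can give. Neither rested on the library that stood apart: without si-CDCP1 replicate 3 the log2 differences were -0.14 for Tap1 and -0.22 for Tap2. The ratio of Tap1 to Tap2 averaged 1.96 ± 0.186 in si-CDCP1 and 1.81 ± 0.128 in si-NC (SD, n = 3 each), and the groups overlapped.

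Tapbp (ENSMUSG00000024308, chromosome 17, 33915899 to 33929288, plus strand) encodes tapasin, the bridge between the heavy chain and TAP. It was at 115, 113 and 134 FPKM in si-CDCP1 replicates 1 to 3, against 132, 136 and 127 FPKM in si-NC replicates 1 to 3. Replicates 1 and 2 of si-CDCP1 lay below all si-NC libraries, and replicate 3 among them. Over all 6 libraries the log2 difference was -0.13 (SE 0.073; adjusted p = 0.428 in limma). Without si-CDCP1 replicate 3 it was -0.21 (SE 0.039), with an adjusted p of 0.0981 in limma.

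Tapbp was the 1 class I gene that passed under any of the settings tried (Psmb8 was tested in only 3 of them), and it did so under a pair of settings. It fell with library weights, which count a more variable library for less (adjusted p = 0.0320), among the 2.54% of all genes that fell there. It also fell in voom on the 5 libraries without si-CDCP1 replicate 3 (adjusted p = 0.00531), among 1.06% of all genes. That setting was added after the data had been seen. Both settings discount or leave out the si-CDCP1 library where Tapbp was highest, so they are not separate results. Over 15 settings its adjusted p ranged from 0.00531 to 0.718. The estimated weight of si-CDCP1 replicate 3 was 0.165 and that of si-CDCP1 replicate 2 was 5.11. The weighted value of Tapbp, like that of every other gene, thus rests largely on replicate 2 of that group. The gene model overlaps Zbtb22 on the same strand over 3421 bases, and reads from that stretch could belong to either gene. Zbtb22 averaged 13.9 FPKM in si-CDCP1 and 14.6 FPKM in si-NC. Tapbpl, a tapasin relative that edits the bound peptide, was at 11.3, 9.89 and 12.6 FPKM in si-CDCP1 replicates 1 to 3 and 10.8, 11.4 and 10.5 FPKM in si-NC replicates 1 to 3, with overlapping groups.

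**Figure D2:**
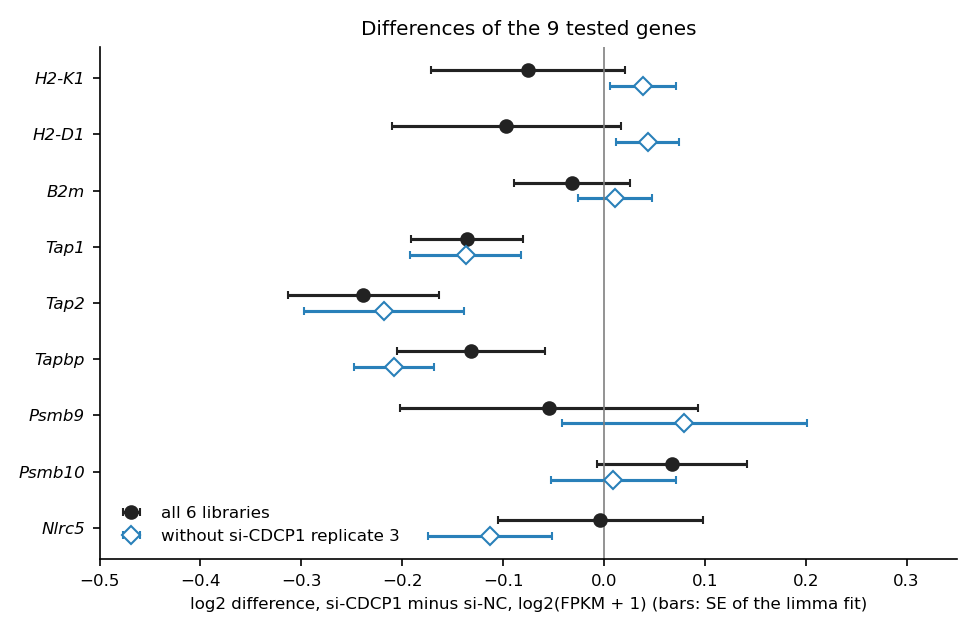
Log2 difference, si-CDCP1 minus si-NC, on the log2(FPKM + 1) scale for the 9 tested class I genes, with all 6 libraries (black circles) and without si-CDCP1 replicate 3 (open blue diamonds); bars are SE of the limma fit. Tap1 (-0.14 in both fits) and Tap2 (-0.24 and -0.22) hold their place, Tapbp is at -0.13 with and -0.21 without that library, and H2-K1, H2-D1, B2m and Psmb9 change sign.

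The immunoproteasome subunits replace the catalytic subunits of the standard proteasome in cells exposed to interferon, which changes the peptides made. In these cultures Psmb8 and Psmb9 were near the lower limit of what was tested, and Psmb10 was not. Psmb9 (ENSMUSG00000096727, chromosome 17, 34181988 to 34187764, minus strand) was at 3.24, 2.28 and 1.82 FPKM in si-CDCP1 replicates 1 to 3, against 2.48, 2.66 and 2.45 FPKM in si-NC replicates 1 to 3. The si-CDCP1 libraries held both the highest and the lowest value, and the log2 difference was -0.05 (SE 0.15; adjusted p = 0.879 in limma), or 0.08 without si-CDCP1 replicate 3. Psmb8 (ENSMUSG00000024338, chromosome 17, 34197721 to 34201454, plus strand) was at 0.887, 0.897 and 0.726 FPKM in si-CDCP1 replicates 1 to 3, against 1.09, 0.740 and 1.06 FPKM in si-NC replicates 1 to 3. These values stand for 31 to 42 reads a library in si-CDCP1 and 33 to 60 in si-NC, and the read ratio of si-CDCP1 to si-NC was 0.859 (exact binomial 95% interval 0.666 to 1.11). That interval covers counting error only and includes a ratio of 1, and the smallest difference detectable at this depth was not tested.

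Psmb10 (ENSMUSG00000031897, chromosome 8, 105935735 to 105938444, minus strand) was at 26.3, 23.2 and 28.0 FPKM in si-CDCP1 replicates 1 to 3 and at 24.7, 23.6 and 25.3 FPKM in si-NC replicates 1 to 3. The si-CDCP1 libraries enclosed the si-NC range, with the highest value in replicate 3. Its log2 difference, 0.07 (SE 0.075; adjusted p = 0.681 in limma), was the single positive one of the 9 and was 0.01 without si-CDCP1 replicate 3.

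Psmb9, Tap1, Psmb8 and Tap2 lie side by side on chromosome 17 in that order. Psmb9 and Tap1 run in opposite directions, and their gene models overlap by 212 bases. Since the strand setting of the counting is not given in the sources used here, reads in that overlap could be counted to either gene. The ratio of Tap1 to Psmb9 was 6.84, 9.00 and 11.7 in si-CDCP1 replicates 1 to 3 and 9.61, 9.20 and 9.14 in si-NC replicates 1 to 3. The ratio of these neighbours was thus steadier among the si-NC libraries. Among the antisense and other genes whose models overlap class I genes, Patl2 over B2m had 5 reads in all 6 libraries together and Gm16156 over Psmb10 had 4. More reads went to 9330175E14Rik, which overlaps Nlrc5 by 748 bases (259 reads), and to Gm15821, which overlaps Tap2 by 3148 bases (36 reads).

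**Figure D3:**
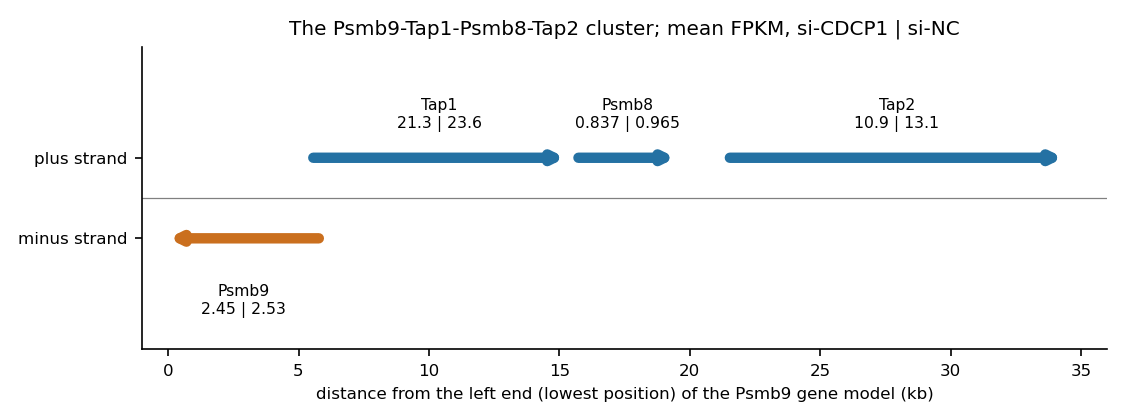
Map of the 4 neighbouring genes Psmb9, Tap1, Psmb8 and Tap2 to scale, as distance in kb from the lowest position of the Psmb9 gene model, with arrows in the direction of transcription and mean FPKM in si-CDCP1 and then si-NC (n = 3 each). Tap1 (21.3 and 23.6 FPKM) and Tap2 (10.9 and 13.1 FPKM) stand far above Psmb9 (2.45 and 2.53 FPKM) and Psmb8 (0.837 and 0.965 FPKM).

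Within a library, each immuno-subunit was set against the constitutive subunit it replaces, a ratio that does not depend on scaling between libraries. The ratio of Psmb8 to Psmb5 was 0.00560, 0.00551 and 0.00536 in si-CDCP1 replicates 1 to 3 and 0.00795, 0.00527 and 0.00768 in si-NC replicates 1 to 3, so Psmb8 stood at under 1% of its counterpart everywhere. Psmb9 stood at 3.49% of Psmb6 in si-CDCP1 and 4.15% in si-NC on average, with overlapping groups. Psmb10 was about level with Psmb7: the ratio was 1.07, 0.907 and 1.05 in si-CDCP1 replicates 1 to 3, against 1.09, 1.15 and 1.15 in si-NC replicates 1 to 3. This was the 1 pair whose groups did not overlap, with a mean of 1.01 ± 0.0900 in si-CDCP1 and 1.13 ± 0.0375 in si-NC (SD, n = 3 each) and a log2 difference of -0.16. Psmb10 itself was not lower on average in si-CDCP1 (log2 difference 0.07, or 0.01 without si-CDCP1 replicate 3). Psmb7 was higher in every si-CDCP1 library than in any si-NC library, as were 14.4% of all tested genes (log2 difference 0.22, or 0.20 without that library). Exact two-sided permutation tests gave p = 0.4 for the Psmb8 and Psmb9 pairs and p = 0.1, the smallest this design allows, for the Psmb10 pair. Adjusted over the 3 pairs, these were 0.4, 0.4 and 0.3, so none passed.

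**Figure D4:**
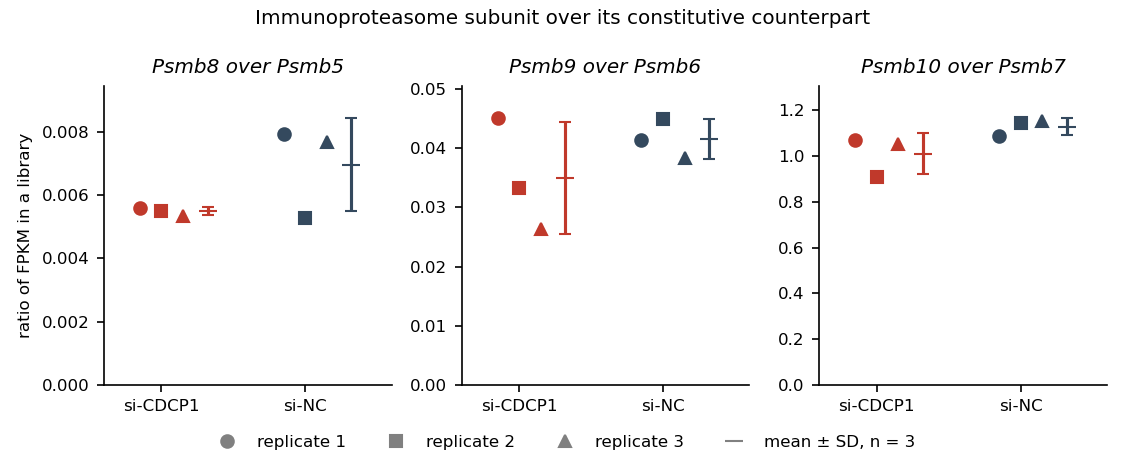
Ratio of FPKM of each immunoproteasome subunit to its constitutive counterpart in the same library, si-CDCP1 in red and si-NC in dark blue, with symbols for the replicates and mean ± SD (n = 3); axes start at 0. Psmb8 lies at 0.00527 to 0.00795 of Psmb5 and Psmb9 at 0.0264 to 0.0451 of Psmb6, while Psmb10 lies between 0.907 and 1.15 of Psmb7, below si-NC in each si-CDCP1 library.

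Of the wider proteasome list (immuno-subunits, constitutive counterparts, activators and the assembly factor Pomp), 10 were tested and 0 passed. In this list 8 log2 differences were positive, with a median of 0.10, beside 6314 positive of all 12080 genes tested. In limma 3 genes had an unadjusted p under 0.05, all higher in si-CDCP1, beside 8.94% of all genes higher. Psmb7 averaged 25.6 ± 1.04 FPKM in si-CDCP1 and 21.8 ± 1.08 FPKM in si-NC, and Psmb6 69.8 ± 1.74 FPKM and 61.0 ± 2.52 FPKM (SD, n = 3 each), with an adjusted p of 0.267 for each in limma. Psme3, an activator of the nuclear proteasome, averaged 63.8 ± 7.43 FPKM in si-CDCP1 and 52.8 ± 1.404 FPKM in si-NC (adjusted p = 0.294 in limma). In voom without si-CDCP1 replicate 3, Psmb5, Psmb6 and Psme3 rose, 3 of 11 genes tested there beside 2.40% of all genes. With library weights 5 of the 10 rose (Pomp, Psmb5, Psmb6, Psmb7 and Psme3), beside 4.62% of all genes, and the adjusted p of Psmb7 was 0.0301 in limma (0.0301 to 0.645 over 15 settings). The weighted fit rests largely on si-CDCP1 replicate 2 in its group. The adjusted p in the voom fit was 0.0127 for Psmb5, 0.0331 for Psmb6 and 0.0347 for Psme3, and over 15 settings each ranged from that value up to 0.680, 0.645 and 0.645. Psmb9 and Psmb10 were not among the genes called in either fit. Psmb8 was not called in the voom fit and, being under the filter, was not tested with library weights. The median of the list was 0.13 without si-CDCP1 replicate 3, and the log2 difference of Psme3 was 0.26 with and 0.17 without that library.

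Of 8 chaperones and trimming enzymes of class I loading in the endoplasmic reticulum, 0 passed, 6 log2 differences were positive, and the median was 0.07, or 0.04 without si-CDCP1 replicate 3. Calr, the chaperone calreticulin of the loading complex, was at 319, 319 and 318 FPKM in si-CDCP1 replicates 1 to 3, against 293, 291 and 284 FPKM in si-NC replicates 1 to 3. Its log2 difference was 0.14 (SE 0.042; adjusted p = 0.289 in limma). It rose in voom without si-CDCP1 replicate 3 (adjusted p = 0.0160; 0.0160 to 0.645 over 15 settings), beside 2.40% of all genes. With library weights Calr was the 1 gene of these 8 that rose, beside 4.62% of all genes. Calr therefore had tight values on the higher side, while Tap1 and Tap2 of the same complex had lower ones. Canx, the chaperone calnexin, averaged 174.6 ± 22.8 FPKM in si-CDCP1 and 154 ± 1.52 FPKM in si-NC, and Lnpep, an aminopeptidase, 21.2 ± 0.432 FPKM and 22.5 ± 0.802 FPKM (SD, n = 3 each). The log2 difference of Canx was 0.17 with and 0.07 without si-CDCP1 replicate 3.

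Nlrc5 (ENSMUSG00000074151, chromosome 8, 94434356 to 94527272, plus strand) encodes the transactivator that assembles on the promoters of the classical heavy chains, B2m, Tap1 and Psmb9. It was at 10.3, 11.5 and 13.97 FPKM in si-CDCP1 replicates 1 to 3, against 11.4, 12.3 and 12.0 FPKM in si-NC replicates 1 to 3. The si-CDCP1 libraries held both the lowest and the highest value. The means were alike, 11.9 ± 1.85 FPKM in si-CDCP1 and 11.9 ± 0.492 FPKM in si-NC (SD, n = 3 each), with a log2 difference of -0.0035 (SE 0.10; adjusted p = 0.992 in limma), or -0.11 without si-CDCP1 replicate 3. In si-CDCP1 replicate 3 Nlrc5 was at 1.21 times the mean of the other 5 libraries, while H2-K1, H2-D1 and B2m, its known targets, were at their lowest there.

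Regulators of class I transcription (interferon receptors and kinases, IRF1, IRF2, the RFX and NF-Y subunits and others; 17 tested) had 0 genes past the threshold, with 11 positive log2 differences and a median of 0.06, or 0.02 without si-CDCP1 replicate 3. In si-CDCP1 replicate 3, however, 12 of the 17, Nlrc5 among them, were above every other library, beside 34.0% of all tested genes. Irf1, which binds class I promoters after interferon, averaged 17.02 ± 1.82 FPKM in si-CDCP1 and 17.4 ± 1.03 FPKM in si-NC (SD, n = 3 each). Irf1 and H2-K2 were named after their values were seen. The smallest p-values of the list belonged to Nfyc and Nfyb, subunits of the promoter-binding factor NF-Y, and to Ifngr2, a chain of the interferon-gamma receptor. Ifngr2 averaged 15.8 ± 1.75 FPKM in si-CDCP1 and 13.8 ± 0.679 FPKM in si-NC, Nfyc 23.2 ± 2.005 and 20.8 ± 0.889 FPKM, and Nfyb 10.9 ± 0.717 and 10.0 ± 0.280 FPKM (adjusted p = 0.372, 0.372 and 0.440 in limma). Their log2 differences were 0.18, 0.15 and 0.11 with all libraries and 0.10, 0.09 and 0.06 without si-CDCP1 replicate 3.

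Of the 9 tested class I genes, 4 (H2-K1, H2-D1, B2m and Psmb9) were lowest in si-CDCP1 replicate 3 and 2 (Psmb10 and Nlrc5) highest, beside 30.0% and 34.0% of all tested genes. These counts lie near the shares of all genes in that library. On the log2(FPKM + 1) scale the library differed from the mean of the other 5 by -0.32 for H2-K1, -0.39 for H2-D1, -0.12 for B2m and -0.35 for Psmb9, and by 0.26 for Nlrc5 and 0.18 for Psmb10. The SD over the other 5 libraries was 0.026 for H2-K1, 0.028 for H2-D1, 0.021 for B2m and 0.089 for Nlrc5. Among the 83 genes that averaged 300 FPKM or more, a class chosen after their values were seen, 41.0% were below every other library in si-CDCP1 replicate 3, and 12.0%, H2-K1 and H2-D1 among them, were under 0.85 times the mean of the other 5. The part of library composition, and of the higher smooth muscle markers in that library, in these differences was not tested.

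**Figure D5:**
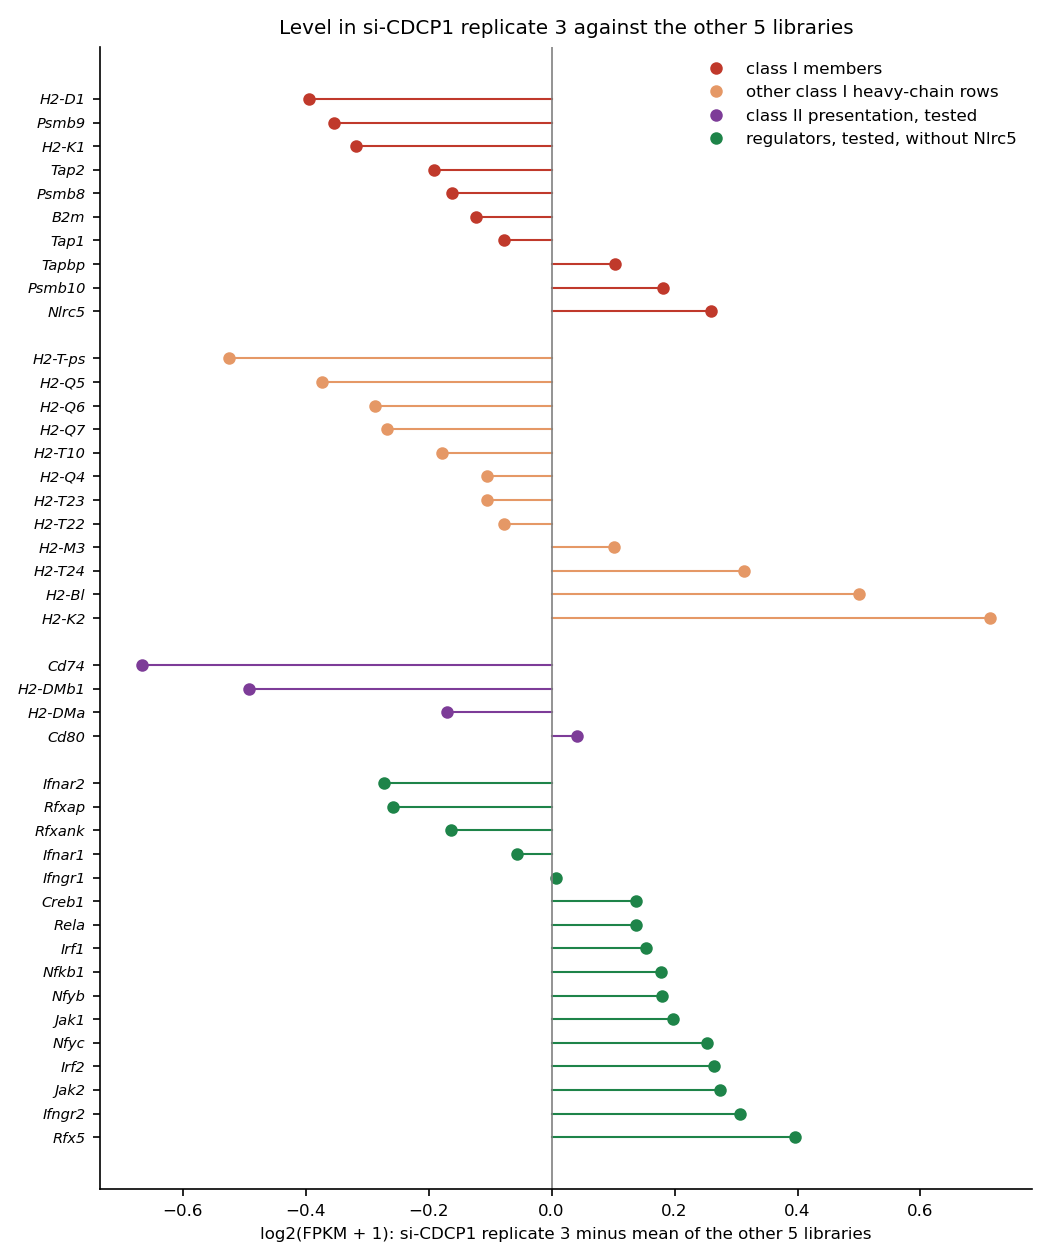
Log2(FPKM + 1) in si-CDCP1 replicate 3 minus the mean of the other 5 libraries, for the 10 class I genes, the 12 other heavy-chain rows, the tested class II genes and the tested regulators other than Nlrc5. The classical heavy chains lie at -0.32 and -0.39 and the class II invariant chain gene Cd74 at -0.67, whereas most regulators lie to the right of 0.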

How the data were processed

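FPKM values of 6 libraries were deposited by the authors in 1 table with gene lengths and mouse Ensembl identifiers; the build mm10 is given per the submitters' processing notes. For the aligner, the counting tool and its strand setting, no statement was given in the sources used here. Multiplying out length and scale returned whole reads (100.0% of values within 0.01 of a read), and the implied library totals equal median-ratio size factors, so the deposited values were already scaled between libraries. Log2(FPKM + 1) of genes averaging 1 FPKM or more was compared with limma 3.58.1 (R 4.3.3, intensity trend, two-sided, BH over all genes). Exact permutation tests used scipy 1.17.1. Limma voom used genes with at least 10 reads in 3 libraries. The fits were tested on simulated data with larger changes than those of the class I genes and with no library that stood apart. Detection of changes of the size seen here was therefore not tested. No pair of libraries was a duplicate (chi-square per degree of freedom at least 3.18). Members and lists were chosen with earlier results of these data known. Named genes are the 10 members, up to 3 genes a list with the smallest p, the 5 genes closest in profile, and heavy-chain paralogs; the rest were picked with values in view. One listed regulator is not reported here and is left out of its list's counts. Of the 10 names, 8 are also rat symbols in RefSeq GRCr8; H2-K1 and H2-D1 are not. Whether the cells were mouse or rat was not settled here. A mismatch could touch the level of any gene, the polymorphic heavy chains among them. Ranks by level, ratios between genes and low marker or Cdcp1 values therefore hold only for reads as counted on mm10.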

Additional observations from a re-analysis of the deposited data

How the results depend on the processing

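No gene of the whole table passed in limma with all 6 libraries. The count was 7 without the filter on low values, 1 with equal FPKM sums, 865 with library weights, 5 in voom, 0 to 1 with each library left out, and 493 in voom without si-CDCP1 replicate 3, a setting added after the data had been seen. With the replicate number as a block it was 1, and no tested class I gene was called. Deviations of same-numbered libraries correlated at -0.020, 0.026 and 0.022, and those of differently numbered ones at -0.047 to 0.033. The labels do not say whether the numbers pair cultures, and with 3 libraries a group these correlations cannot settle it. The median log2 difference of the class I genes, -0.07, lay between -0.14 and 0.0092 with each library left out: it was -0.14 without si-CDCP1 replicate 1 and 0.0092 without si-CDCP1 replicate 3. It also depended on the scaling, since FPKM summed to 286916 to 294678 in si-CDCP1 libraries and 280056 to 282051 in si-NC libraries. With equal FPKM sums the median was -0.13, with B2m at -0.09, Tap1 at -0.19 and Psmb10 at 0.02, and no class I gene passed. Directions that changed sign were 0.014 for H2-K1, 0.038 for H2-D1 and -0.057 for Psmb10 with library weights, and 0.039, 0.043, 0.011 and 0.12 for H2-K1, H2-D1, B2m and Psmb9 in voom without si-CDCP1 replicate 3. With each library left out, the log2 differences ranged from -0.14 to 0.039 for H2-K1, -0.17 to 0.043 for H2-D1, -0.058 to 0.011 for B2m, -0.21 to 0.080 for Psmb9 and -0.11 to 0.087 for Nlrc5. Those of Tap1 (-0.17 to -0.11), Tap2 (-0.28 to -0.18) and Tapbp (-0.21 to -0.09) stayed negative, as they did in all 15 settings run. The log2 ratio differences of Psmb8, Psmb9 and Psmb10 to their counterparts ranged from -0.51 to -0.21, -0.48 to -0.10 and -0.21 to -0.09. The cause of these changes was not tested. Depth limits Psmb8 most, at 31 to 60 reads a library.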

Other observations

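Class II presentation, which moves peptides from endosomes to CD4 T cells, was at low levels apart from a few genes. Of its 13 listed genes with values, 4 were tested, 0 of them passed, the median log2 difference was -0.11 (0.03 without si-CDCP1 replicate 3), and H2-Aa was at 0 in every library. Cd74, the invariant chain, was the exception in level: it was at 90.8, 82.9 and 54.7 FPKM in si-CDCP1 replicates 1 to 3, against 97.2, 86.2 and 80.5 FPKM in si-NC replicates 1 to 3. It was lowest in si-CDCP1 replicate 3, like the class I heavy chains, and its log2 difference of -0.23 (SE 0.18; adjusted p = 0.552 in limma) was -0.01 without that library. H2-DMb1, a chain of the class II peptide editor, averaged 6.96 ± 1.45 FPKM in si-CDCP1 and 8.22 ± 1.05 FPKM in si-NC, and the costimulator Cd80 1.27 ± 0.183 and 0.987 ± 0.168 FPKM (SD, n = 3 each). The log2 difference of H2-DMb1 was -0.22 with and -0.07 without si-CDCP1 replicate 3. Ciita, the class II transactivator and relative of Nlrc5, was under 0.06 FPKM in every library.

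Cytosolic peptidases, which trim or destroy peptides before transport, had 0 of 6 tested genes past the threshold, with 5 positive log2 differences and a median of 0.09, or 0.05 without si-CDCP1 replicate 3. Lap3, an interferon-inducible leucine aminopeptidase, averaged 37.6 ± 2.31 FPKM in si-CDCP1 and 32.7 ± 0.502 FPKM in si-NC (SD, n = 3 each; adjusted p = 0.279 in limma). With library weights Lap3 rose (adjusted p = 0.0404; 0.0404 to 0.645 over 15 settings), 1 of the 6 beside 4.62% of all genes. The bleomycin hydrolase Blmh averaged 12.4 ± 0.315 FPKM in si-CDCP1 and 11.5 ± 0.202 FPKM in si-NC. Of the 6, 2 (Lap3 and Blmh) had every si-CDCP1 library above every si-NC library, beside 14.4% of all tested genes. Npepps, a puromycin-sensitive aminopeptidase, averaged 15.8 ± 0.779 and 14.9 ± 0.517 FPKM.

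The 5 tested genes whose standardised profile over the 6 libraries lay closest to the mean profile of the class I genes were Anxa6, Maged2, Scara3, Shroom3 and Osgin1, with root mean square distances of 0.061 to 0.113 in SD units. Each was lowest in si-CDCP1 replicate 3, as the mean profile was, and 0 passed in unweighted limma on all 6 libraries. They were picked by that profile in these same libraries, so their low place there and lower si-CDCP1 values are no separate result. With library weights 4 of the 5 fell in limma (Anxa6, Maged2, Shroom3 and Osgin1, adjusted p of 0.0357, 0.0345, 0.0359 and 0.0278), beside 2.54% of all genes. That fit used the libraries that picked these genes, so this count is no separate result either. Over 15 settings the adjusted p of these 4 reached up to 0.645. Anxa6, a calcium-dependent membrane-binding annexin, averaged 39.1 ± 2.72 FPKM in si-CDCP1 and 44.2 ± 0.906 FPKM in si-NC (SD, n = 3 each). That mean profile describes no single class I gene well, since Nlrc5 and Psmb10 were highest in the library where it was lowest.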
